A study of Homo sapiens with 6 samples.

Results

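The BCL2 family genes described here are 10 rows of a table of 32862 genes. They were taken by symbol and were chosen with earlier results of these data known. They are the pro-survival genes BCL2, BCL2L1 and MCL1, the effector genes BAX and BAK1, and the BH3-only genes BID, BAD, BCL2L11, PMAIP1 and BBC3. Poly(A)-selected RNA of SH-SY5Y, a neuroblastoma line of human origin, was sequenced. There were 3 libraries from cells whose OTULIN gene had been disrupted by CRISPR-Cas9 (labelled OTULIN KO) and 3 from wild-type cells (WT), all untreated and all given the same batch label. The OTULIN protein cuts linear chains of ubiquitin. The labels do not say whether the KO cells came from 1 clone or whether replicates were grown apart. The p-values below therefore reflect the spread among these 6 libraries, and that spread may be technical.

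Proteins of the BCL2 family decide whether the outer membrane of the mitochondrion stays intact. BAX and BAK1 form pores in that membrane, which release cytochrome c and lead to caspase activation. BCL2, BCL2L1 (BCL-XL) and MCL1 hold these effectors in check, and BH3-only proteins either bind the survival proteins or activate the effectors directly. In neurons and neuroblastoma cells this balance sets how readily a stressed cell dies, and many neuroblastoma cells depend on BCL2 or MCL1.

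The KO libraries were far smaller than the WT libraries. They held 725827 to 862932 counts in KO and 61772795 to 64352333 in WT, and 2306 to 2567 genes had a count in a KO library against 27453 to 27958 in a WT library. Of 10820 tested genes, 71.3% were at 0 in all 3 KO libraries. OTULIN itself had 0 counts in each KO library and 1682, 2101 and 2155 counts in the WT libraries, but since most genes were at 0 in KO, this does not check the labels. Of 12 markers of adrenergic neuroblastoma, the cell type of SH-SY5Y, 4 had a count in each KO library and all 12 in each WT library, with DBH and CHGA (named after seeing their values) at 0 in KO. Their summed level was 674 to 745 CPM (counts scaled to a library total of 1000000) in KO and 6412 to 7313 CPM in WT. The summed level of 9 markers of substrate-adherent mesenchymal neuroblastoma was 52.1 to 131 CPM in KO and 677 to 704 CPM in WT. Of the 6 tested, 4 were lower, COL1A1 (named for that call) was higher (log2 change 1.92, edgeR adjusted p = 0.0019) and 1 had no call. The summed level of 5 epithelial markers was 4.94 to 29.0 CPM in KO and 7.43 to 23.1 CPM in WT, and that of 4 blood markers was 0 to 6.89 CPM in KO and 1.46 to 2.17 CPM in WT. Mitochondrially encoded RNA made up 0.00423% of the KO counts and 8.52% of the WT counts. Low depth, undetected genes and this low mitochondrial share went together in KO, so that their part in any difference below cannot be told apart from that of OTULIN loss. In bulk RNA, fewer cells of a type and less RNA per cell cannot be told apart either.

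All 10 genes had counts in every WT library, and 7 of the 10 had none in any KO library. Of the 9 that were tested 6 had none, near the 71.3% of all genes tested. The genes with KO counts were BCL2, MCL1 and BCL2L11. Summed over the 10 genes, the KO libraries held 4, 8 and 16 counts, where 514, 548 and 461 would have been present at the WT share of the counts. In the WT libraries the sum was 38727, 41729 and 39114 counts. All 9 members that passed the filter of a mean of at least 1 FPKM were called lower in KO (quasi-likelihood test in edgeR, with p adjusted after Benjamini and Hochberg from 5.1e-06 to 0.00015). The same call was made for 88% of all 10820 genes tested, so the members' count is close to the background. The 9 members passed the filter through their WT values, with KO means of at most 0.574 FPKM, so the filter favoured this call. The 88% rests on the same filter. With the replicate number as a block, which no label ties to a shared culture or day, 1 of the 9 members (BCL2) was called lower, as were 2.67% of all genes tested. The groups did not overlap for any of the 10 genes, as also held, with KO lower, for 88% of the genes tested. The median log2 ratio of mean CPM, with genes at 0 in KO set to the floor of 3 counts over the KO group (1.25 CPM), was -4.82 over 9 members and -4.57 over 10697 of the tested genes.

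**Figure D1:**
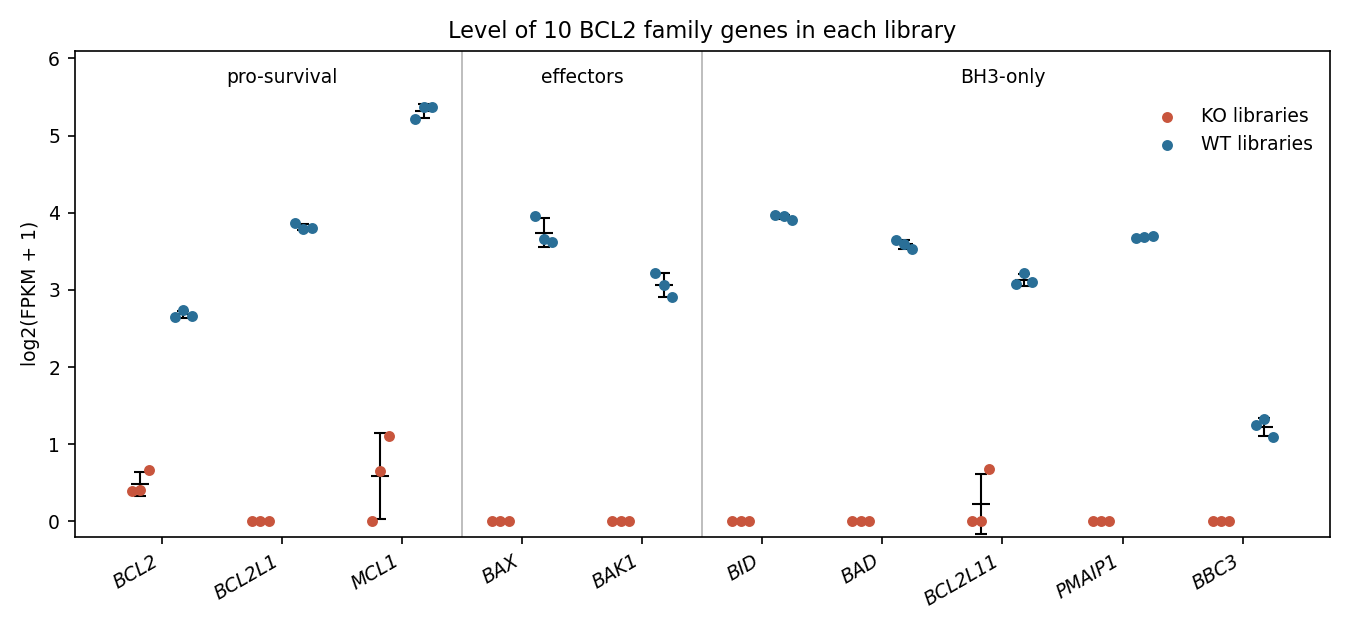
Level of each of the 10 genes on the log2(FPKM + 1) scale, with 1 point per library, KO libraries to the left of WT libraries for each gene, and a bar and whiskers for the mean and SD (n = 3 each). All KO points of 7 genes lie at 0, and no KO point of any gene reaches the WT points of that gene.

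MCL1, a short-lived protein that restrains BAK1 and binds PMAIP1, had the highest WT level of the family. MCL1 (ENSG00000143384, chromosome 1, 150560895 to 150579610, minus strand, hg38) had 0, 4 and 6 counts in the KO libraries and 15272, 17631 and 16959 counts in the WT libraries. Its level per length was 0, 0.575 and 1.15 FPKM in KO and 36.2, 40.4 and 40.4 FPKM in WT. The KO values were all far below the WT values, and 1 of the 3 KO libraries had no MCL1 count. On the CPM scale MCL1 was 61.5-fold lower, at 4.30 ± 4.1 CPM in KO and 265 ± 17 CPM in WT (SD, n = 3 each; log2 change -6.37, SE 0.45, edgeR adjusted p = 1.7e-05). The log2 change was -5.75 without KO replicate 1 and -7.15 without KO replicate 3. The 10 pooled KO counts have a 95% Poisson interval of 4.80 to 18.4, against 635 at the WT share. Gene-level counts do not separate the long, pro-survival form of MCL1 from shorter forms. ADAMTSL4, which overlaps MCL1, was at 0 in KO and had 60, 93 and 92 counts in WT.

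BCL2, which gave the family its name and sits on mitochondria and endoplasmic reticulum, was the only member with counts in all 3 KO libraries. BCL2 (ENSG00000171791, chromosome 18, 63123346 to 63320128, minus strand) had 4, 4 and 6 counts in the KO libraries and 4510, 5026 and 4516 counts in the WT libraries. The level was 0.308, 0.325 and 0.586 FPKM in KO and 5.27, 5.68 and 5.31 FPKM in WT. BCL2 fell 12.5-fold, to 5.95 ± 2.0 CPM in KO against 74.6 ± 3.1 CPM in WT (SD, n = 3 each; log2 change -4.07, SE 0.15, edgeR adjusted p = 5.1e-06). The 14 pooled KO counts (95% Poisson interval 7.65 to 23.5) compare with 179 at the WT share.

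BCL2L1, whose long form BCL-XL is the main survival protein of mature neurons, was at 0 in KO. BCL2L1 (ENSG00000171552, chromosome 20, 31664452 to 31723989, minus strand) had 0 counts in each KO library and 3869, 3778 and 3683 counts in the WT libraries, or 13.6, 12.8 and 13.0 FPKM in WT. It was at least 48.1-fold lower, with 60.2 ± 1.8 CPM in WT (SD, n = 3) and 144 KO counts to be seen at the WT share (edgeR adjusted p = 1.4e-05). This bound holds only if BCL2L1 reads were not counted for ABALON, an overlapping gene on the other strand with 82 pooled KO counts. The long form and the death-promoting short form BCL-XS share the gene row and were not separated.

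The antisense gene inside BCL2L1 went the other way. ABALON (ENSG00000281376, chromosome 20, 31721507 to 31723409, plus strand), a long non-coding RNA, had 10, 39 and 33 counts in the KO libraries and 50, 22 and 27 counts in the WT libraries, although the WT libraries were far deeper. That is 34.3 ± 19 CPM in KO and 0.528 ± 0.24 CPM in WT (SD, n = 3 each), 65.1-fold higher in KO (log2 change 5.63, SE 0.64, edgeR adjusted p = 0.00012). The groups did not overlap on the CPM scale, where KO libraries lay between 12.4 and 45.5 CPM and WT libraries between 0.342 and 0.804 CPM. ABALON passed the filter through its KO values, and 7.63% of tested genes were called higher. Its single exon of 1903 bases holds 10 of the 15 different BCL2L1 exons in GENCODE 29, at least 1 from each of 9 transcripts, so that, without known strandedness, reads of the shared bases could belong to either gene.

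**Figure D2:**
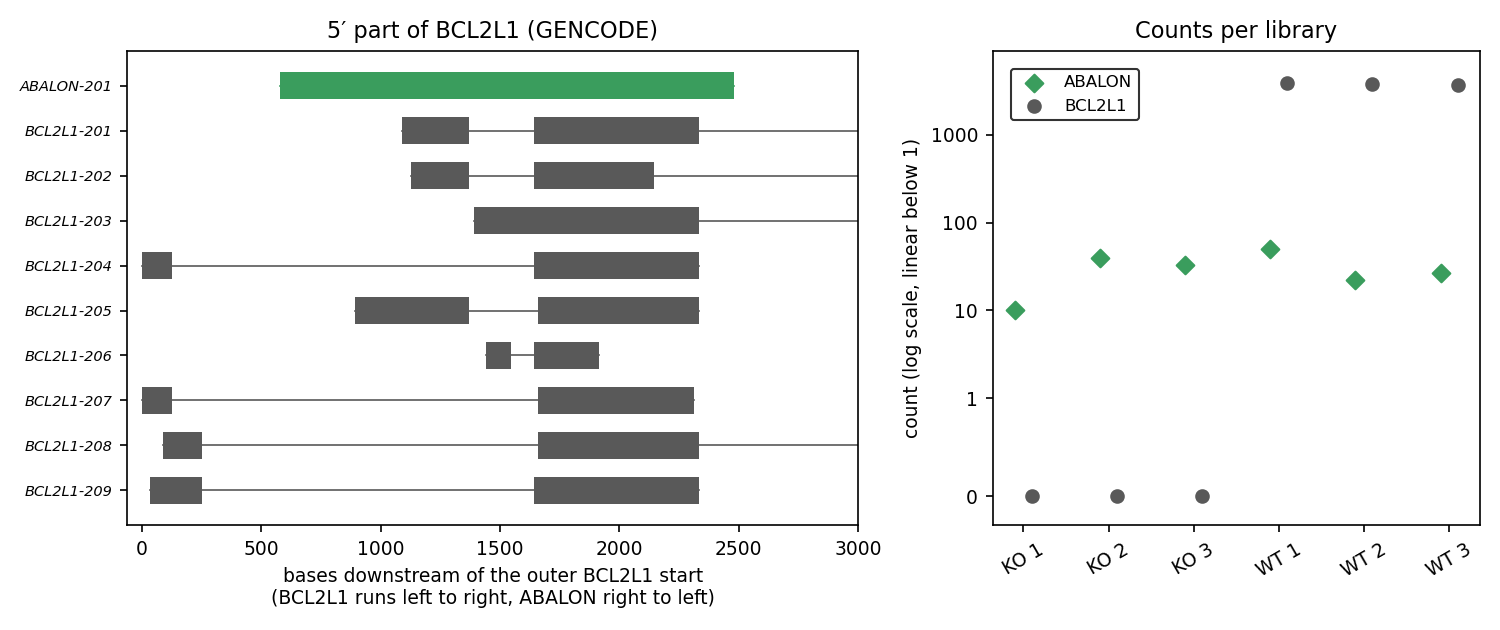
Left, exons (boxes) of ABALON and of 9 BCL2L1 transcripts, by distance in bases from the outer BCL2L1 start. Right, counts of ABALON (diamonds) and BCL2L1 (circles) in each library on a log scale that is linear below 1: BCL2L1 lies at 0 in all 3 KO libraries and at 3683 to 3869 in WT, while ABALON has 10 to 39 counts in KO and 22 to 50 in WT.

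RefSeq gives BCL2L1 an outer and an inner start, and only the window before the inner start lies inside ABALON. Both are printed because the antisense counts bear on this stretch of chromosome 20. They are the 250 bases before each start on the minus strand of GRCh38.p14, at chr20:31723964-31724213 for the outer and chr20:31722869-31723118 for the inner start. Capitals mark the motif TATAAA.
BCL2L1 outer start: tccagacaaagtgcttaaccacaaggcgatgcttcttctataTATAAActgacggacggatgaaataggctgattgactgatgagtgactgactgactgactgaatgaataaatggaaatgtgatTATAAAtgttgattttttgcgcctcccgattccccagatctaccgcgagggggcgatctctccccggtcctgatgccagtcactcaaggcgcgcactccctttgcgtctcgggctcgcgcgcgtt
BCL2L1 inner start: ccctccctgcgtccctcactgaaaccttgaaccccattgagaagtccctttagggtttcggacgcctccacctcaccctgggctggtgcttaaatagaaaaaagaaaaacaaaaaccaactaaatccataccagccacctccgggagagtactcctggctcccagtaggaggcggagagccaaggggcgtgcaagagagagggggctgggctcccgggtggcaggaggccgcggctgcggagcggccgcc
The outer window is 50.0% G or C and begins 554 bases beyond the end of ABALON, and the inner window is 60.4% G or C. Searched on both strands, TATAAA occurred at 2 places in the outer window and at none in the inner one. Neither held GGGCGG or CCAAT. Among 35116 RefSeq windows of the same length, 10.7% held TATAAA, 42.6% GGGCGG and 32.0% CCAAT, on either strand.

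Both effector genes were at 0 in every KO library. BAX (ENSG00000087088, chromosome 19, 48954815 to 48961798, plus strand) moves from the cytosol to mitochondria when activated. It had 0 counts in each KO library and 2553, 2110 and 1971 counts in the WT libraries, or 14.5, 11.6 and 11.3 FPKM in WT. BAX was at least 28.2-fold lower (WT 35.2 ± 5.0 CPM, SD, n = 3; edgeR adjusted p = 0.00015), and 84.5 KO counts would have been seen at the WT share. BAK1 (ENSG00000030110, chromosome 6, 33572547 to 33580293, minus strand) encodes BAK, which resides in the outer membrane. It had 0 counts in each KO library and 1244, 1141 and 968 counts in the WT libraries, or 8.29, 7.35 and 6.49 FPKM in WT. BAK1 was at least 14.2-fold lower (edgeR adjusted p = 0.00015), against 42.7 counts at the WT share. Its pseudogene BAK1P1 was at 0 in KO and had 13, 11 and 13 counts in WT, so few BAK1 reads were counted there.

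Among the BH3-only genes, BCL2L11 was the only one with a KO count. BCL2L11 (ENSG00000153094, chromosome 2, 111119378 to 111168444, plus strand) encodes BIM, which binds all survival members and activates BAX. It had 0, 0 and 4 counts in the KO libraries and 3510, 4065 and 3596 counts in the WT libraries, or 0, 0 and 0.595 FPKM in KO and 7.40, 8.28 and 7.62 FPKM in WT. All KO counts came from KO replicate 3, without which the gene was at 0 in KO (the log2 change without KO replicate 1 was -4.91). BCL2L11 was 32.3-fold lower (log2 change -5.54, SE 0.49, edgeR adjusted p = 3.8e-05), with a 95% Poisson interval of 1.09 to 10.2 on the 4 pooled counts, against 142 at the WT share. It overlaps the host gene MIR4435-2HG, which was at 0 in KO and had 146, 181 and 139 counts in WT.

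BID (ENSG00000015475, chromosome 22, 17734138 to 17774495, minus strand), which caspase 8 cleaves to link death receptors to mitochondria, had 0 counts in each KO library and 4384, 4496 and 4187 counts in the WT libraries. Its WT level was 14.6, 14.5 and 14.0 FPKM, and it was at least 55.5-fold lower in KO (edgeR adjusted p = 1.2e-05), the largest of the bounds among the 7 genes at 0. CASP8, which encodes that caspase and was chosen after its values were seen, was at 0 in KO and had 31, 35 and 23 counts in WT, or 0.0583 FPKM on average in WT. PMAIP1 (ENSG00000141682, chromosome 18, 59899996 to 59904305, plus strand), known as NOXA, a protein that binds MCL1, had 0 counts in each KO library and 1744, 1818 and 1768 counts in the WT libraries. Its WT level was 11.8, 11.8 and 12.0 FPKM, and it was at least 22.6-fold lower in KO (edgeR adjusted p = 1.6e-05). Across the WT libraries PMAIP1 had the smallest relative spread of the 10 genes, with a coefficient of variation of 0.940% in FPKM.

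BAD (ENSG00000002330, chromosome 11, 64269830 to 64284665, minus strand), which 14-3-3 proteins hold in the cytosol when it is phosphorylated, had 0 counts in each KO library and 1342, 1326 and 1221 counts in the WT libraries. It had 11.6, 11.0 and 10.6 FPKM in WT and was at least 16.5-fold lower in KO (edgeR adjusted p = 3.4e-05). GPR137 overlaps BAD on the other strand and had 0 counts in each KO library and 2596, 2483 and 2265 counts in WT, so the WT level of BAD is uncertain without known strandedness. BBC3 (ENSG00000105327, chromosome 19, 47220822 to 47232766, minus strand), known as PUMA, a protein that binds all survival members, had 0 counts in each KO library and 299, 338 and 245 counts in WT, or 1.38, 1.50 and 1.14 FPKM in WT. It missed the filter because of its mean over all 6 libraries. With no filter it was called lower (edgeR adjusted p = 0.0019), as were 42.6% of 32862 genes. At the WT share only 11.2 KO counts would have been seen, and it was at least 3.74-fold lower, the smallest bound of the 7 genes at 0.

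**Figure D3:**
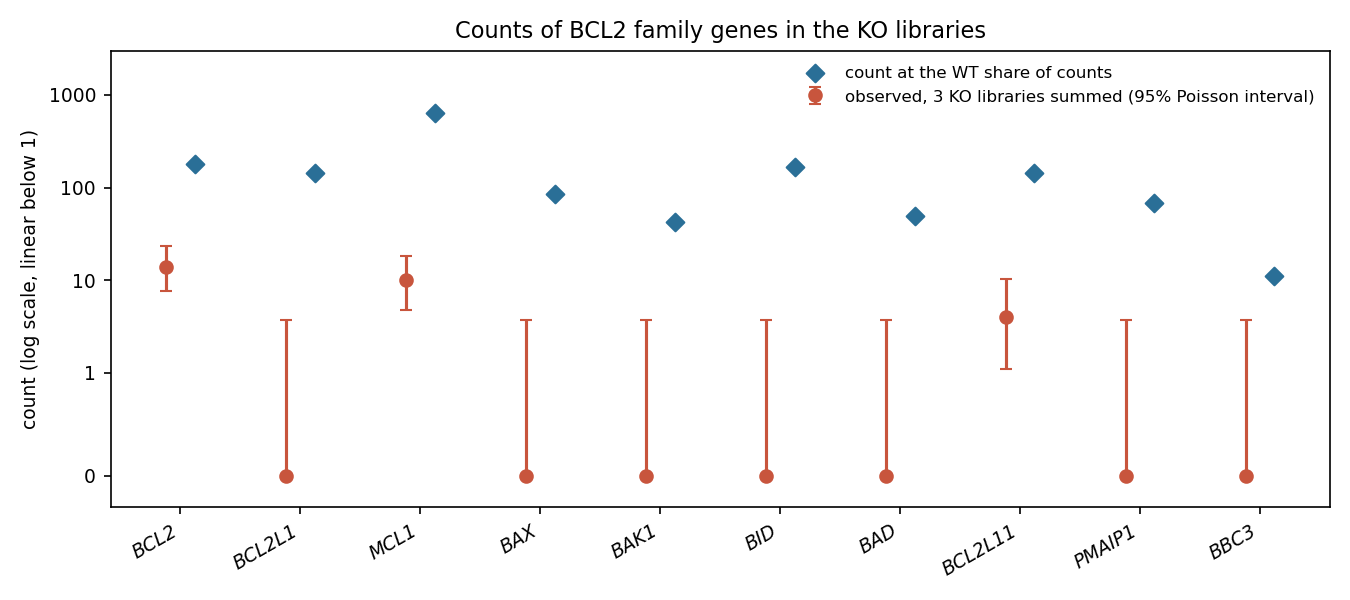
Counts of each gene summed over the 3 KO libraries (circles, with exact 95% Poisson intervals) beside the count that the WT share would give at the same depth (diamonds), on a log scale that is linear below 1. No interval reaches its diamond, the closest being BBC3 at 0 against 11.2. The intervals take each count as an independent read, which was not tested.

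The order of the family in WT is a description of wild-type SH-SY5Y. Per length, MCL1 was highest at 39.0 ± 2.4 FPKM (SD, n = 3), 2.71 times the mean of BID, and its 3 values lay above all others. BID at 14.4 ± 0.31 FPKM lay just above BCL2L1 at 13.1 ± 0.40 FPKM, with no overlap between their values. BAX at 12.5 ± 1.8 FPKM overlapped BID and BCL2L1 above it and PMAIP1 and BAD below it, so its place among them is not settled. PMAIP1 at 11.9 ± 0.11 FPKM and BAD at 11.1 ± 0.50 FPKM did not overlap each other. BCL2L11 at 7.77 ± 0.46 FPKM and BAK1 at 7.38 ± 0.90 FPKM could not be ordered, since their values overlapped. BCL2 followed at 5.42 ± 0.22 FPKM and BBC3 was lowest at 1.34 ± 0.18 FPKM, a level above that of 2.28% of the tested genes. The median WT level of the tested genes was 7.24 FPKM.

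BCL2 changed rank most between units. By counts it was second in the family, after MCL1, and per length it was ninth, because FPKM divides by transcript length. In FPKM, the MCL1 to BCL2 ratio was 6.87, 7.11 and 7.61 in the WT libraries. The BAX to BCL2 ratio was 2.76, 2.04 and 2.12, and the BAX to BAK1 ratio was 1.75, 1.58 and 1.74. In KO the ratios to BCL2 rest on 14 pooled BCL2 counts and are not given.

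By role, the pro-survival genes made up the largest part of the summed FPKM of the 10 genes in WT. They held 46.5% ± 2.1, the BH3-only genes 37.5% ± 0.25 and the effectors 16.0% ± 2.0 (SD, n = 3). In KO the counts that were present came from the pro-survival genes BCL2 and MCL1, with the 4 BCL2L11 counts of KO replicate 3 as the exception, too few for a share.

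The WT libraries differed most in BAX, BBC3 and BAK1, with coefficients of variation of 14.4%, 13.7% and 12.2% in FPKM. Relative to its WT mean, the FPKM of BAX was +16.6% in WT replicate 1 and -6.98% and -9.60% in replicates 2 and 3. BAK1 lay at +12.4% in WT replicate 1, and at -0.393% and -12.0% in replicates 2 and 3. MCL1 and BCL2L11 were lowest in WT replicate 1, at -7.15% and -4.68%. PMAIP1 lay between -0.842% and +1.01%. BBC3 had its highest value in replicate 2 and its lowest in replicate 3, at +11.9% and -15.0%.

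The genes nearest to BCL2 over the 6 libraries, by Euclidean distance of log2(CPM + 1), were COLGALT1, SOD2 and RAPGEF1 at 0.394, 0.484 and 0.720. COLGALT1, a collagen galactosyltransferase, had 4, 4 and 6 counts in KO, the same as BCL2, and 5493, 5458 and 5381 in WT. SOD2, the mitochondrial superoxide dismutase, also had 4, 4 and 6 counts in KO and had 3711, 4015 and 3824 in WT. No other member had a count in every KO library, so this likeness was taken for BCL2 alone.

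Outside the 10 genes, a wider list of family and associated genes was mostly lower in KO too. It held 16 genes, with BNIP2 and the read-through gene BCL2L2-PABPN1 among the associated ones, and 9 were tested. Among these 8 were lower and 1 was higher, and 6 had no KO count, against 88% called lower and 7.63% called higher among all genes tested. Their median log2 ratio of mean CPM, with genes at 0 in KO set to the floor, was -3.59. The highest in WT were BNIP3 and BNIP3L, mitophagy receptors of the outer membrane. BNIP3 had 0 counts in each KO library and 22.0 FPKM on average in WT, and was at least 77.6-fold lower. BNIP3L had 0, 0 and 7 counts in KO and 21.4 FPKM in WT, and was 30.2-fold lower, with all KO counts in replicate 3, without which it was at 0 in KO. Its log2 change was -5.44, and -4.82 without KO replicate 1. BNIP2 was at least 71.9-fold lower.

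BCL2L2 (BCL-w), a pro-survival relative of BCL-XL, differed 1.09-fold between the groups in mean CPM. It had 36, 35 and 29 counts in the KO libraries and 2802, 2742 and 3007 counts in the WT libraries, or 41.7 ± 2.4 CPM in KO and 45.4 ± 3.1 CPM in WT (SD, n = 3 each). TMM factors put it lower (log2 change -0.52, SE 0.10, edgeR adjusted p = 0.0021), a call lost with library totals alone (log2 change -0.17, edgeR adjusted p = 0.25). The BCL2L2 call was also lost with limma (adjusted p of 0.062 and 0.067 with pseudocounts of 1 and 0.1) and with the replicate block (edgeR adjusted p = 0.29). BCL2L2-PABPN1, a read-through gene that joins BCL2L2 to the poly(A)-binding gene PABPN1, was the only gene of the wider list called higher. It had 19, 114 and 135 counts in KO and 490, 444 and 1199 in WT, 9.99-fold higher in CPM (log2 change 2.92, SE 0.73, edgeR adjusted p = 0.0069), and its log2 change was 3.59 without WT replicate 3, the highest WT library. PABPN1, named because it overlaps the read-through gene and after seeing its values, had 94, 4 and 35 counts in KO and 9537, 8852 and 7610 in WT (edgeR adjusted p = 0.037, log2 change -1.73, SE 0.64). The PABPN1 call was lost without KO replicate 3 or any 1 of the 3 WT libraries (edgeR adjusted p from 0.063 to 0.17), and the log2 change was -2.85 without KO replicate 1. KO replicate 1 was the highest of the 3 KO libraries for PABPN1 and the lowest for the read-through gene. The 3 rows cover overlapping stretches of the same strand, so how reads were divided among them is uncertain.

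Genes that act at or after the mitochondrial pore were mostly lower, as were most genes tested. Of 24 genes of the mitochondrial death pathway 20 were tested, of which 16 fell, 1 rose and 3 had no call. No KO count was seen for 14 of the 20 (median log2 ratio -5.26). Among all genes tested 88% were called lower, 7.63% higher and 71.3% had no KO count, so these counts are near the background. The genes of highest WT level were VDAC1 and VDAC2, channels of the outer membrane, FIS1, a fission factor, and BIRC5 (survivin). VDAC1 was at least 151-fold, FIS1 at least 65.1-fold and BIRC5 at least 132-fold lower. VDAC2, which holds BAK in the membrane, was 42.7-fold lower on 0, 4 and 4 KO counts (log2 change -5.83, and -5.20 without KO replicate 1). BIRC6, a giant inhibitor of apoptosis with ubiquitin-conjugating activity, rose 3.36-fold, to 502 ± 115 CPM in KO against 149 ± 18 CPM in WT (SD, n = 3 each; log2 change 1.34, SE 0.16, edgeR adjusted p = 0.00018).

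The 3 genes of that pathway without a call were XIAP, MTCH2 and MFF. XIAP, which blocks caspases, had 37.0 ± 10 CPM in KO and 35.6 ± 3.5 CPM in WT (SD, n = 3 each; edgeR adjusted p = 0.19). It was called lower with median-ratio scaling (log2 change -0.87, edgeR adjusted p = 0.0063), with DESeq2 (adjusted p = 1.9e-05) and without KO replicate 2 (edgeR adjusted p = 0.0085). MTCH2, the outer-membrane receptor of cleaved BID, had 507, 0 and 0 counts in KO and 4756, 5376 and 4688 in WT (edgeR adjusted p = 0.52). All of its KO counts came from KO replicate 1, without which it was at 0 in KO and called lower (edgeR adjusted p = 1.9e-05). MFF, an adaptor of mitochondrial fission, had 0, 55 and 70 counts in KO and 4477, 4824 and 4756 in WT (log2 change -0.90, edgeR adjusted p = 0.21). Its log2 change was -0.28 without KO replicate 1 and -1.54 without KO replicate 3, with no call in either.

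Of 32 regulators 29 were tested, of which 6 rose, 21 fell and 2 had no call. No KO count was seen for 9 of the 29 (median log2 ratio -2.75). The shares among all genes tested were 88% lower, 7.63% higher and 71.3% without a KO count. HUWE1, a ubiquitin ligase that marks MCL1 for destruction, rose 9.13-fold. It had 1547, 1533 and 1743 counts in KO and 13742, 14027 and 14069 in WT, or 2030 ± 329 CPM in KO and 222 ± 5.0 CPM in WT (SD, n = 3 each; log2 change 2.79, SE 0.11, edgeR adjusted p = 6.7e-06). USP9X, a deubiquitinase that protects MCL1, rose 3.41-fold, with 374, 335 and 427 counts in KO and 7818, 9461 and 9240 in WT (edgeR adjusted p = 9.7e-05, log2 change 1.36, SE 0.15). Both act on the MCL1 protein, which was not measured. The MCL1 RNA was 61.5-fold lower in the same libraries, where most genes tested were lower.

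BECN1, an autophagy protein with a BH3 domain that BCL2 binds, rose 5.21-fold (log2 change 1.98, SE 0.16, edgeR adjusted p = 3.0e-05). YWHAZ, the 14-3-3 zeta protein that can bind BAD, rose 2.52-fold, to 1699 ± 213 CPM in KO against 675 ± 25 CPM in WT (SD, n = 3 each; edgeR adjusted p = 3.3e-05). MAPK8 (JNK1) and GSK3B, kinases that phosphorylate family members, were 1.88-fold and 1.74-fold higher in CPM, with edgeR adjusted p of 0.017 and 0.0082, but median-ratio scaling turned both below 0 (log2 change -0.05 and -0.15), without a call. The MAPK8 call was also lost without WT replicate 1 (edgeR adjusted p = 0.058), and both calls were lost with no filter (edgeR adjusted p of 0.061 for MAPK8 and 0.055 for GSK3B). Not called were PPP3CA, the catalytic subunit of calcineurin, which dephosphorylates BAD (edgeR adjusted p = 0.20), and AMBRA1, an autophagy regulator that BCL2 binds (edgeR adjusted p = 0.87). PPP3CA was called lower without KO replicate 1 (edgeR adjusted p = 0.017) and, as was AMBRA1, with median-ratio scaling (edgeR adjusted p of 0.0048 for PPP3CA and 0.019 for AMBRA1). The directions of both turned with library totals alone, and limma called AMBRA1 higher (adjusted p of 0.031 and 0.035 with pseudocounts of 1 and 0.1).

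Of the other regulators with the highest WT levels, 3 were lower. TPT1, a translationally controlled protein that stabilises MCL1, had 4, 3 and 0 counts in KO and 72597, 72465 and 67713 in WT, 403-fold lower (log2 change -8.99, and -9.58 without KO replicate 1). ATF4, the stress-response factor that induces PMAIP1 and BBC3, had 0, 5 and 4 counts in KO and 13377, 14409 and 13897 in WT, 58.7-fold lower (log2 change -6.27, and -5.65 without KO replicate 1 or -6.86 without KO replicate 2). BAG6, a chaperone that handles membrane proteins, was 1.66-fold lower, with 251 ± 118 CPM in KO and 417 ± 32 CPM in WT (SD, n = 3 each; log2 change -1.14, SE 0.30, edgeR adjusted p = 0.0086), a call lost without WT replicate 1 (edgeR adjusted p = 0.053). For scale, 1496 tested genes had 30 or more pooled KO counts, and their median log2 change depended on the normalization. It was 0.57 with TMM factors, 0.01 with median-ratio scaling and 0.92 with library totals alone. Relative to that TMM median, GSK3B and MAPK8 were lower and HUWE1, BECN1, USP9X, BIRC6 and YWHAZ higher.

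**Figure D4:**
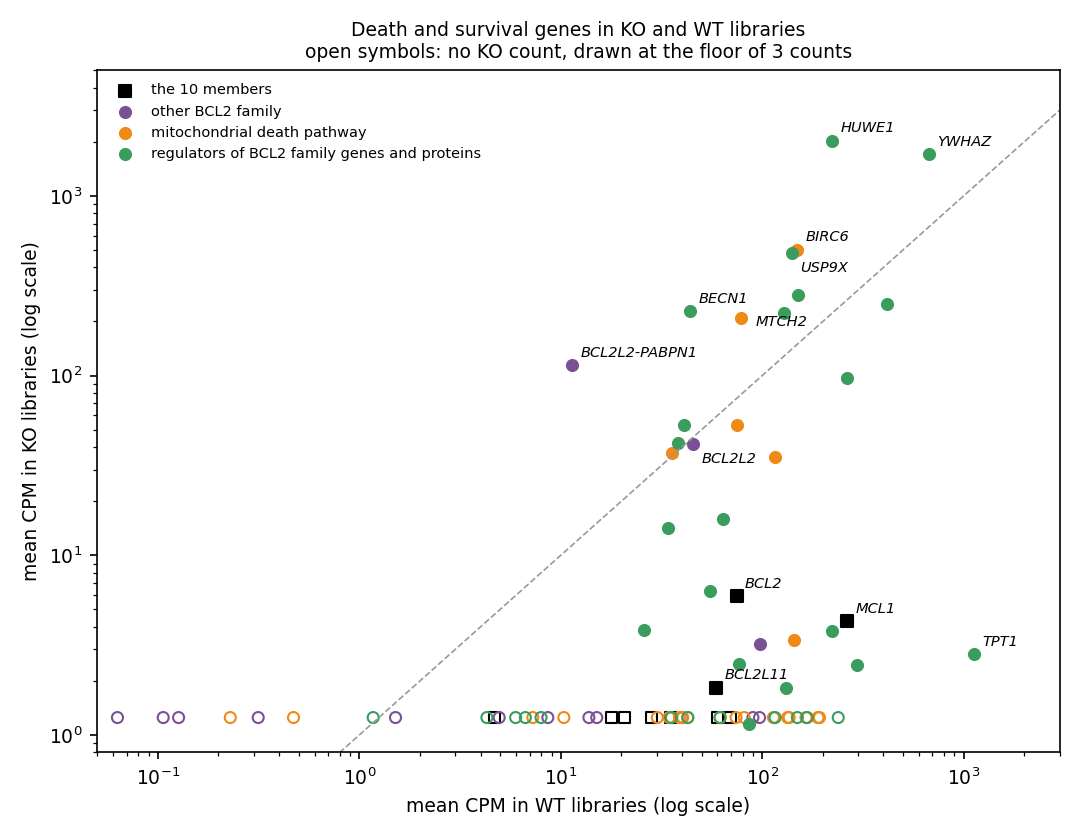
Mean CPM in the KO libraries (vertical) against mean CPM in the WT libraries (horizontal), both on log scales, for the 10 members (squares) and 3 related lists (circles), with the dashed line at equal CPM. Open symbols have no KO count in any library and are drawn at the floor of 1.25 CPM. All 10 members lie below the line. HUWE1, USP9X, BIRC6, BECN1, YWHAZ and BCL2L2-PABPN1 lie above it, as do MAPK8, GSK3B, MTCH2, XIAP, PPP3CA and AMBRA1. Open symbols with a WT mean under 1.25 CPM, such as CASP8, lie above the line only because of the floor.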

How the data were processed

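Poly(A)-selected RNA was sequenced in 6 libraries, grouped by the genotype in their titles (OTULIN KO and WT, 3 each). The deposited table gives, per the file headers, a whole-number count and an FPKM value (fragments scaled to gene length and library total, made by the authors) for each gene and library. Build hg38 and the tools HISAT2 2.0.4, StringTie 1.3.4d, cutadapt 1.9 and DESeq2 are listed, per the submitters' processing notes, without saying what each was used for. Neither the annotation release nor whether counting used strand is given in the sources used here.

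Rows were taken by gene symbol. The 10 genes and the other lists were chosen with earlier results of these data known. Because the table holds counts, the test was edgeR 4.0.16 (quasi-likelihood, R 4.3.3) with TMM factors and genotype as the only term, over the 10820 of 32862 genes whose 6 libraries average 1 FPKM or more. A call is a p under 0.05 after Benjamini-Hochberg adjustment over all genes tested. A gene under that filter was read from the same fit with no filter. The standard error of a log2 change is its size divided by the root of F. CPM are counts scaled to a library total of 1000000. Fold changes are ratios of mean CPM. A gene at 0 in all KO libraries was set at a floor of 3 counts over the 2398362 counts of the KO group, 1.25 CPM. Its fold is then a lower bound, and the fitted log2 change, which depends on the prior count, is not printed in the report. Counts at the WT share are the gene's share of all WT counts times the KO total. Intervals are exact 95% Poisson intervals. They, like the floor, cover counting error only. Both take each count as an independent read, which was not tested. Where not 0, the KO counts of the members were 4 or 6 in a library. If 1 read gave several counts, the intervals and the fold bounds would be too tight.

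Outside the 10 genes, the text names the 4 genes of highest WT FPKM, those called higher and those tested but not called in each of 3 lists, the 3 genes nearest to a member in log2(CPM + 1), loci that overlap a member, and OTULIN. Any other gene was chosen after seeing its values, and the text says so. A result on 1 further gene is not reported here. The alternatives were median-ratio scaling, library totals without TMM factors, no filter, a stricter filter of 5 FPKM, DESeq2 1.42.0, limma 3.58.1 on log2(FPKM + 1) and log2(FPKM + 0.1), a replicate block, a TPM scale, and leaving out each library in turn. The fits were tested on data simulated from the WT profile in both groups. Those data do not mimic KO libraries with most genes at 0, so they do not check the fits in that setting. Replicate pairs differed beyond sampling noise (chi-square of 10.3 to 24.8 per degree of freedom). Promoter windows came from RefSeq (GRCh38.p14) and exon models from GENCODE 29 on the same build. Other computation used Python 3.11.15, pandas 2.3.3, scipy 1.17.1 and matplotlib 3.10.9.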

Additional observations from a re-analysis of the deposited data

How the results depend on the processing

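The fitted log2 changes of the 10 members were below 0 under every alternative that could fit them (BBC3 could be fitted only with no filter). Deviations of same-numbered KO and WT libraries correlated at 0.0160, -0.0262 and 0.0234 over 1496 genes. Not every library correlated best with its own number, and all KO and WT pairs lay between -0.0411 and 0.0289. At the low depth of the KO libraries, counting error can hide a shared deviation. These values therefore cannot decide whether same-numbered libraries shared a culture or day. With the replicate block, 452 genes were called higher and 289 lower (826 and 9519 without it), and 1 of the 9 members tested, BCL2, was called. The block left 0 genes of the wider family list higher and 0 lower, 0 genes of the mitochondrial death pathway lower and 3 regulators lower. Requiring a mean of 5 FPKM left 4719 genes, of which 3851 were lower. Of the wider family list 5 genes were then tested and 4 were lower. Of the regulators 20 were tested, with 13 lower and 4 higher, against 21 lower and 6 higher in the main fit. Log2 changes moved as well, for BIRC6 from 1.34 to 1.01 and for BCL2L2 from -0.52 to -0.84. The cause of these moves was not tested. Without each library in turn, 792 to 847 genes were called higher, 9387 to 9534 lower, and all 9 members lower.

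Directions turned for XIAP, MTCH2, MAPK8, GSK3B, PPP3CA and AMBRA1. With median-ratio scaling and DESeq2, MAPK8 was at -0.0525 and -0.0523 and GSK3B at -0.15 and -0.15 (log2 change). With library totals alone, XIAP was at 0.0263, PPP3CA at 0.11 and AMBRA1 at 0.32. With limma at pseudocounts of 1 and 0.1, PPP3CA was at 0.0614 and 0.0648, AMBRA1 at 0.26 and 0.31 (called higher in both) and MTCH2 at -2.16 and -4.33. MTCH2 was at -4.06 with the replicate block. Without each library in turn, MTCH2 ranged from -14.55 (without KO replicate 1, where it is at 0 in KO and the fitted value depends on the prior count) to 1.56 and AMBRA1 from -0.0959 to 0.13, above 0 without KO replicate 1, KO replicate 3 or WT replicate 1. The cause of these turns was not tested. The shares by role in WT are ratios within a library, which a TPM scale cannot change, so that scale was no check of them. Leaving out 1 of 3 WT libraries cannot move a mean by as much as 1 SD, so it was no check either. Depth limits KO: 1 count is 1.16 to 1.38 CPM there and 0.0155 to 0.0162 CPM in WT.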

Other observations

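Some of the transcription factors that control death genes, other than ATF4, are given here as values, and others of the regulator list, such as MYC, are not. They were picked with their values in view. HIF1A, the hypoxia factor that induces BNIP3, had 75, 74 and 82 counts in the KO libraries and 14983, 17395 and 17124 in the WT libraries, 2.71-fold lower, while BNIP3 itself was at 0 in KO. FOXO3, which induces BCL2L11, had 10, 22 and 7 counts in KO and 3696, 4083 and 4265 in WT, 4.04-fold lower. E2F1 was at 0 in KO and at 57.0 FPKM on average in WT, at least 134-fold lower. MYCN had 0, 10 and 0 counts in KO, so that it was at 0 there without KO replicate 2, and 1674, 1694 and 1521 counts in WT, 6.72-fold lower in mean CPM. DDIT3 (CHOP) was at 0 in KO and had 289, 460 and 378 counts in WT, at least 4.77-fold lower.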
